A study of Mus musculus with 13 samples.

Results

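The core circadian clock was described through 10 genes, *Arntl* (also called Bmal1), *Clock*, *Per1*, *Per2*, *Per3*, *Cry1*, *Cry2*, *Nr1d1*, *Nr1d2* and *Dbp*, in Sertoli cells sorted from single adult male mice. They were chosen by exact gene symbol, and 10 of 10 were found among the 27111 named features of the deposited table. RNA-seq covered 6 control males, which were left undisturbed as pups, and 7 MSUS males, which as pups were taken from their mother for 3 h a day at unpredictable times between postnatal days 1 and 14 while the mother was exposed to cold swim or restraint. All were C57Bl/6J males aged 3 to 5 months, housed on a reverse light cycle of 12 h and handled in the dark, active phase. The hour at which each male was killed is not given in the sources used here. Cells were obtained by enzymatic digestion of the testis and sorted as diploid, large cells with high mitochondrial staining, so each value belongs to 1 animal and to a preparation enriched in, not limited to, Sertoli cells.

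The circadian clock is a transcriptional feedback loop present in most cells. ARNTL and CLOCK form a dimer that binds E-box elements and activates the *Per*, *Cry*, *Nr1d* and *Dbp* genes, the PER and CRY proteins inhibit the dimer, and NR1D1 and NR1D2 (REV-ERB alpha and beta) repress *Arntl*. In strongly rhythmic tissues, *Arntl* and *Clock* therefore peak when *Nr1d1*, *Nr1d2*, *Dbp* and the *Per* genes are low, whereas the testis is known as a tissue in which clock gene transcripts cycle weakly and *Per1* and *Clock* are present in germ cells. *Per1* and *Nr1d1* also respond to acute signals that do not come from the clock.

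Levels are given as log2 CPM, the base 2 logarithm of counts on named genes scaled to a common library size, after TMM normalization (a correction for library composition). A sample held between 9776853 and 14383367 counts on named genes. The 5 Sertoli cell markers *Amhr2*, *Clu*, *Ctsl*, *Rhox5* and *Sox9* averaged 10.04 to 10.31 log2 CPM in control animals and 10.04 to 10.29 in MSUS animals. The 4 elongated spermatid markers *Prm1*, *Prm2*, *Tnp1* and *Tnp2* averaged 7.50 to 8.14 in controls and 7.26 to 8.56 in MSUS animals. The 3 spermatocyte markers *Sycp1*, *Sycp3* and *Piwil1* averaged 5.32 to 5.80 in controls and 4.74 to 6.05 in MSUS animals. The 3 round spermatid markers *Acrv1*, *Spaca1* and *Tssk2* averaged 3.58 to 4.09 in controls and 3.41 to 4.93 in MSUS animals. Relations of the members with the spermatocyte and round spermatid markers were not computed. The 3 macrophage markers summed to at most 22 counts in any sample. The 2 peritubular myoid markers *Acta2* and *Myh11* varied more, with averages of 1.65 to 4.77 in controls and 2.18 to 5.29 in MSUS animals. The 4 Leydig cell markers averaged 0.59 to 2.81 in controls and 1.89 to 2.93 in MSUS animals. In such bulk samples, fewer cells of a type and less RNA per cell cannot be told apart.

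All 10 members passed the filter on low counts that left 14421 genes for testing. Levels of different genes were ordered only per kb of exon, because a longer transcript collects more reads. In controls, *Cry2*, which encodes a cryptochrome repressor, had the highest level per length with 5.03 ± 0.09 log2 CPM per kb (SD, n = 6). *Per1* with 4.74 ± 0.18, *Dbp*, a PAR bZIP transcription factor gene, with 4.73 ± 0.09, and *Nr1d1* with 4.47 ± 0.15 followed (log2 CPM per kb, SD, n = 6). *Clock* and *Cry1* had the same level per length, 3.97 ± 0.07 and 3.97 ± 0.08, and *Nr1d2* had 3.07 ± 0.13 (log2 CPM per kb, SD, n = 6). *Arntl* was far below its partner *Clock* with 1.46 ± 0.24, and *Per2* and *Per3* came last with -1.10 ± 0.32 and -1.17 ± 0.18 (log2 CPM per kb, SD, n = 6). Most neighbours in this order differed in the same direction in 6 of 6 controls, with the exceptions of *Per1* and *Dbp* (*Per1* higher in 3 of 6), *Clock* and *Cry1* (2 of 6) and *Per2* and *Per3* (4 of 6). When the longest annotated transcript replaced the exon length, *Dbp* came before *Per1* and *Per3* before *Per2*, each in 6 of 6 controls. *Clock* was then above *Cry1* by a mean of 0.36 log2, also in 6 of 6 controls. These positions, and the equal level of *Clock* and *Cry1*, thus depended on the length used.

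The members lie on 8 chromosomes of the mouse genome (GRCm38, GENCODE vM21). *Per1* spans chr11:69095217-69109960 and *Nr1d1* chr11:98767932-98775333, whereas *Arntl* (chr7:113207465-113314126) and *Dbp* (chr7:45705088-45710203) share chromosome 7. *Clock* is at chr5:76209868-76304792, *Per2* at chr1:91415982-91459324, *Per3* at chr4:151003652-151044665, *Cry1* at chr10:85131700-85185064, *Cry2* at chr2:92403646-92434043 and *Nr1d2* at chr14:18204054-18239127. Exons of *Nr1d1* overlap those of the thyroid hormone receptor gene *Thra* on the opposite strand by 263 bp (8.55% of *Nr1d1* exon bases), and exons of *Dbp* overlap those of *Sphk2* by 539 bp (18.0%). *Cry2* shares 295 bp (4.67%) with D930015M05Rik and *Arntl* 33 bp (0.439%) with Gm45355, both on the opposite strand. The study names a stranded library kit, but whether strand was used in counting is not given in the sources used here. Reads in these stretches therefore cannot be assigned to 1 gene with certainty, above all for *Dbp*.

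Promoter sequences are shown for the pairs with the largest r in size across animals, described below. These are *Per1* and *Per3* (r = 0.73) and *Cry1* and *Cry2* (r = -0.70). Neither pair had an adjusted p under 0.05 (permutation, 0.163 for each). A link between the motifs and these r was not tested. Sequences are from RefSeq (GRCm38.p6) and run 5′ to 3′ on the strand of the gene, from 250 bases before to 50 bases after an annotated start. Capitals mark the motifs that were searched on both strands: the E-box CACGTG and the E′-box CACGTT, bound by the ARNTL and CLOCK dimer, the D-box TTATGNAA, bound by DBP and its relatives, and AGGTCA, the core of the element bound by REV-ERB and ROR proteins. The windows are chr11:69098699-69098998 (plus strand) for *Per1*, chr4:151044616-151044915 (minus strand) for *Per3*, chr10:85185005-85185304 (minus strand) for *Cry1* and chr2:92434020-92434319 (minus strand) for *Cry2*.
Per1: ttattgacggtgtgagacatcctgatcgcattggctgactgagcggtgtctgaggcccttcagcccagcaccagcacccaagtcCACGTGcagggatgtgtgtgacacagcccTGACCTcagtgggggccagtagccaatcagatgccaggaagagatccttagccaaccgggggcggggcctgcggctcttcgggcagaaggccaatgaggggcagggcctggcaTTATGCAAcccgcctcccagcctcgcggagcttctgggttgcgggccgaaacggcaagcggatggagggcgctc
Per3: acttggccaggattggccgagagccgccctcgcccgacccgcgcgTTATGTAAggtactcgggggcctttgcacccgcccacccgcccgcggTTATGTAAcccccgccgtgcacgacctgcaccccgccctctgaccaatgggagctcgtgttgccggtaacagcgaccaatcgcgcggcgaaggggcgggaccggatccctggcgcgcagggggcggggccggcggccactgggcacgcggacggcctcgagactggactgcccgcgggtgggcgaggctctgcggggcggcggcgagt
Cry1: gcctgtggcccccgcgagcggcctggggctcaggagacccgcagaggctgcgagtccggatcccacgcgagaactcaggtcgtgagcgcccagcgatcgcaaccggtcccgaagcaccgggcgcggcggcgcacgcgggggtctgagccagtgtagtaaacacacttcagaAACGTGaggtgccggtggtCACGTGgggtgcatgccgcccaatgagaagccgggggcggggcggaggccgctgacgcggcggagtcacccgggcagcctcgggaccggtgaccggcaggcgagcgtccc
Cry2: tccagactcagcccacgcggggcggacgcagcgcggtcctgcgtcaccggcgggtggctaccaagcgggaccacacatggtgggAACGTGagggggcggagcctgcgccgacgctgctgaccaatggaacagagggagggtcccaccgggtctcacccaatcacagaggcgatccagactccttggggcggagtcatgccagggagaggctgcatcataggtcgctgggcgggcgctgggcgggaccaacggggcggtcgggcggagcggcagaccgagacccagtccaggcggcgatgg

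The *Per1* window shown holds an E-box 166 bases and a D-box 24 bases before the start. It also holds an AGGTCA match on the reverse strand 137 bases before the start. Another *Per1* window, chr11:69099902-69100201, held none of these motifs. The *Per3* window holds a pair of D-boxes, 205 and 158 bases before the start. *Cry1* and *Cry2* each hold an E′-box on the reverse strand, 79 and 166 bases before the start, and *Cry1* also an E-box 60 bases before it. The 9 members with a window in the RefSeq table had 13 windows, since *Per1*, *Arntl* and *Clock* have several and *Per2* has none. Of these 13 windows, 2 held an E-box, 3 an E′-box, 2 a D-box and 4 an AGGTCA match, each in as many genes. Over all 32851 windows of this length, 7.15% held an E-box, 4.68% an E′-box, 3.38% a D-box and 16.3% an AGGTCA match. These matches describe letters in a window, not bound sites.

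The first question was how much the members varied between animals, since a spread in the phase of the clock at collection could show as a spread in level. The span between the lowest and the highest of the 13 animals was smallest for *Dbp*, at 0.34 on the log2 scale or 1.27-fold. *Nr1d2*, *Cry2* and *Clock* spanned 1.32-fold, 1.33-fold and 1.36-fold, and *Nr1d1*, *Cry1*, *Per1* and *Arntl* spanned 1.53-fold, 1.62-fold, 1.67-fold and 1.75-fold. In rhythmic tissues *Dbp* and *Nr1d1* have among the largest daily amplitudes of these genes. Here *Dbp* had the narrowest span of the 10 members, and *Nr1d1* was in the middle. Males were handled in the dark phase at hours not given, so these spans do not show how far a gene cycles over the day. *Per3* spanned 2.56-fold and *Per2* 7.98-fold, but both had few reads, with a median of 57 and 30 counts per animal. At the median count, counting alone gives an SD of 0.26 log2 for *Per2* and 0.19 log2 for *Per3*, against 0.05 for *Dbp* and 0.03 for *Clock*.

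Set against the other genes, 8 of the 10 members did not stand out by their spread. The SD over 13 animals was at percentile 7.43 of all tested genes for *Dbp*, 9.67 for *Nr1d2*, 11.3 for *Clock* and 19.5 for *Cry2*, that is, most genes varied more. *Nr1d1* (38.0), *Cry1* (39.3), *Arntl* (46.0) and *Per1* (48.3) were below the middle of all genes. *Per3* was at percentile 71.9 and *Per2* at 96.5, the 2 members with the lowest counts. The biological coefficient of variation of edgeR takes the level of a gene into account. Relative to the trend for genes of the same abundance, it was 0.747 for *Nr1d2*, 0.766 for *Dbp*, 0.809 for *Per3* and 0.842 for *Clock*, and above the trend for *Per2* (1.19), *Nr1d1* (1.06), *Per1* (1.05) and *Cry1* (1.03).

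**Figure D1:**
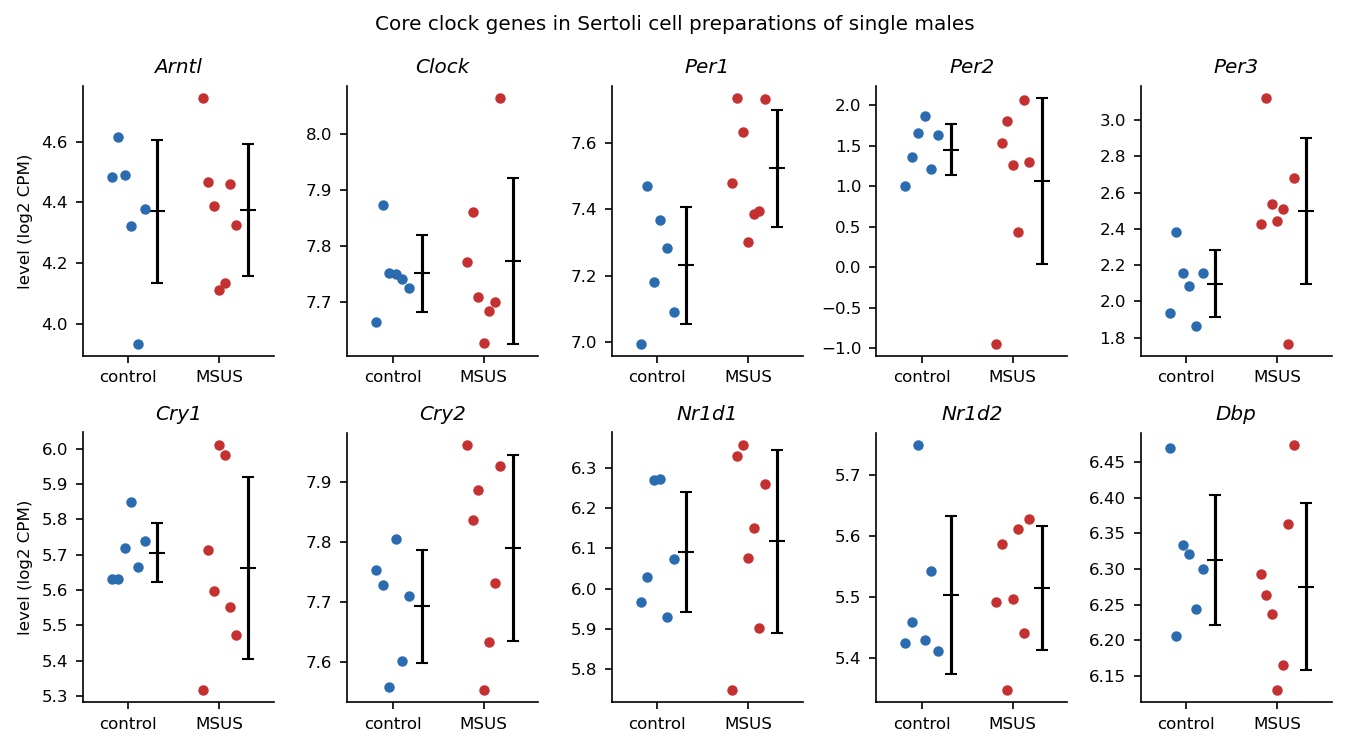
Level of each core clock gene (log2 CPM, y axis, a separate scale per gene) in each control and MSUS animal (points), with the mean ± SD of each group beside the points. *Per1* was above all controls in 4 of 7 MSUS animals and *Per3* in 6 of 7, while *Cry1* was outside the narrow control range in both directions, above it in 2 and below it in 4 MSUS animals.

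The activators were considered first in single animals. *Arntl*, which encodes the DNA-binding partner of CLOCK, had a lowest, median and highest level of 3.93, 4.43 and 4.61 log2 CPM in controls and of 4.11, 4.39 and 4.74 in MSUS animals. The ranges of both groups covered each other, with control 22 lowest and MSUS 1 highest of the 13 animals. *Clock* had 7.66, 7.75 and 7.87 in controls and 7.63, 7.71 and 8.06 in MSUS animals (log2 CPM, lowest, median and highest). MSUS 26 was above and MSUS 11 below all controls, and the other 5 MSUS animals lay among them.

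Of the *Per* genes, which encode the period repressors, *Per1* had 6.995, 7.23 and 7.47 log2 CPM in controls and 7.30, 7.48 and 7.73 in MSUS animals (lowest, median and highest). All 7 MSUS animals were above the control mean and 4 were above every control, so the groups overlapped at control 10, control 14 and the lower MSUS animals. *Per3* had 1.86, 2.12 and 2.38 in controls and 1.77, 2.51 and 3.12 in MSUS animals (log2 CPM). Here 6 of 7 MSUS animals exceeded every control, and MSUS 23 was below every control. *Per2* had 1.00, 1.49 and 1.86 in controls and -0.94, 1.29 and 2.06 in MSUS animals (log2 CPM), with the lowest value, in MSUS 1, resting on 4 counts (95% Poisson interval 1.09 to 10.2). The highest *Per2* count of any animal was 38 (26.9 to 52.2), and these intervals cover counting error only.

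The cryptochrome genes *Cry1* and *Cry2* encode the partners of the PER proteins. *Cry1* had 5.63, 5.69 and 5.85 log2 CPM in controls and 5.32, 5.60 and 6.01 in MSUS animals (lowest, median and highest). The controls formed a narrow band, with 2 MSUS animals above and 4 below all of them. *Cry2* had 7.56, 7.72 and 7.81 in controls and 7.55, 7.84 and 7.96 in MSUS animals (log2 CPM). Here 4 MSUS animals were above and 1 was below all controls. MSUS 1 had the lowest *Cry1* and the highest *Cry2* of all animals, and MSUS 11 the highest *Cry1* and the lowest *Cry2*. The same animals were at the ends of the spermatocyte marker average, with 4.74 log2 CPM in MSUS 1 (lowest) and 6.05 in MSUS 11 (highest). MSUS 11 also had the highest round spermatid marker average (4.93 log2 CPM). A relation of *Cry1* or *Cry2* with these markers was not tested.

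The nuclear receptor genes and *Dbp* showed little difference between groups. *Nr1d1* had 5.93, 6.05 and 6.27 log2 CPM in controls and 5.75, 6.15 and 6.36 in MSUS animals (lowest, median and highest). *Nr1d2* had 5.41, 5.44 and 5.75 in controls and 5.35, 5.50 and 5.63 in MSUS animals (log2 CPM). *Dbp* had 6.21, 6.31 and 6.47 in controls and 6.13, 6.26 and 6.47 in MSUS animals (log2 CPM). In all 3 genes, the ranges of the groups overlapped over most of their length.

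MSUS animals were then compared with controls by limma with voom. *Per1* had the smallest p of the 10 members, with a log2 fold change of 0.29 (SE 0.09, 95% interval 0.11 to 0.48), or 1.22-fold, from 7.23 ± 0.18 in controls (SD, n = 6) to 7.52 ± 0.18 in MSUS animals (SD, n = 7). Its unadjusted p was under 0.05 and its adjusted p in limma over all genes was 0.878, and 7 of 7 MSUS animals were above the control mean. *Per3* had a log2 fold change of 0.42 (SE 0.20, 95% interval 0.0068 to 0.84, limma adjusted p = 0.878), from 2.10 ± 0.18 (SD, n = 6) to 2.50 ± 0.40 (SD, n = 7). These 2 members of 10 had an unadjusted p under 0.05, both with higher values in MSUS animals, and 0 had an adjusted p under 0.05. Over all 14421 genes, 5.42% had an unadjusted p under 0.05, 3.02% with higher and 2.4% with lower values in MSUS animals, and 0% had an adjusted p under 0.05 (781 genes unadjusted with limma, 793 or 5.5% with edgeR and 835 or 5.79% with DESeq2, and 0 adjusted with each). The median log2 fold change of the 10 members was 0.016, against -0.0018 for all genes. No member had groups that did not overlap, as 0.132% of all genes did.

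For the other 8 members the 95% interval of the limma estimate included 0. *Cry2* had a log2 fold change of 0.10 (SE 0.07, 95% interval -0.05 to 0.25) and *Per2* of -0.45 (SE 0.40, interval -1.30 to 0.40). The *Per2* estimate was -0.06 without MSUS 1, which had 4 counts, and -0.19 with both edgeR and DESeq2. The estimates of *Cry1* (-0.04, interval -0.25 to 0.17), *Nr1d1* (0.03, -0.17 to 0.24), *Nr1d2* (0.01, -0.15 to 0.17) and *Dbp* (-0.03, -0.18 to 0.11) were close to 0. For the activators, the estimates were 0.02 for *Clock* (interval -0.12 to 0.16) and 0.00 for *Arntl* (-0.26 to 0.27). For *Clock* and *Nr1d2* the 95% intervals thus ended within 0.17 of 0 on the log2 scale, while for *Per2* a difference of more than 2-fold in the direction of lower values lay inside the interval.

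The direction of *Per1* was the same in every alternative tried, and its p was under 0.05 in 23 of 24. The exception was a fit with the level of *Malat1* as covariate, in which the log2 fold change of *Per1* was 0.06 (SE 0.06, limma adjusted p = 0.999) and that of *Per3* 0.19 (SE 0.23). *Per3* had a p under 0.05 in 9 of 24 alternatives.

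**Figure D2:**
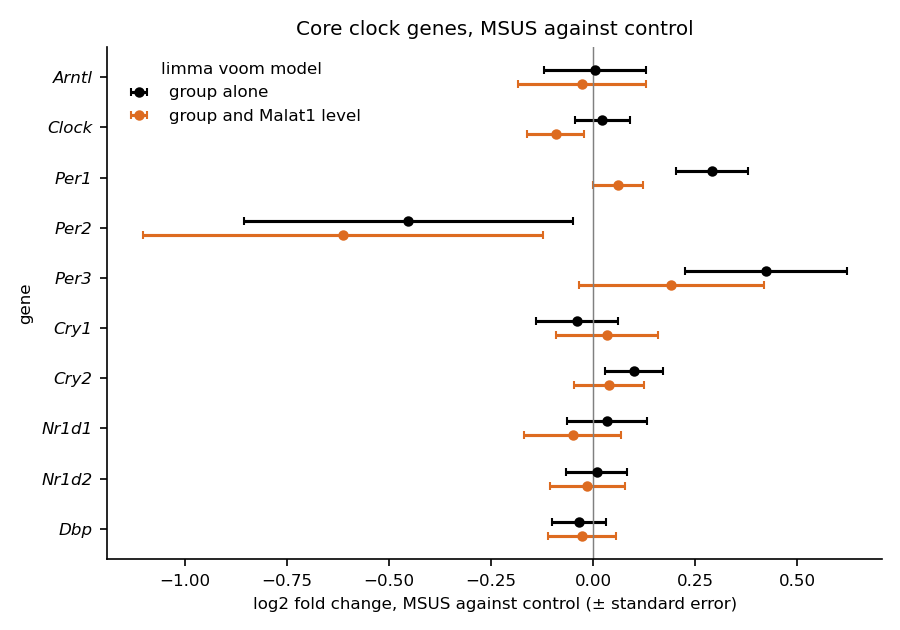
Log2 fold change of each core clock gene, MSUS against control (x axis, ± standard error), from limma with group alone (black) and with group and *Malat1* level (orange). For *Per1* the estimate was 0.29 with group alone and 0.06 with *Malat1* in the fit, while *Arntl*, *Nr1d1*, *Nr1d2* and *Dbp* were near 0 in both.

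*Malat1* is an abundant long noncoding RNA retained in the nucleus. It had 9.16, 9.997 and 10.69 log2 CPM in controls and 10.16, 10.44 and 11.28 in MSUS animals (lowest, median and highest). Its log2 fold change between groups was 0.70 (unadjusted p under 0.05, limma adjusted p = 0.878). Across the 13 animals *Per1* followed *Malat1* closely, with a Pearson r of 0.96 (permutation p = 1e-05, the smallest that 100000 permutations can give) and a Spearman rho of 0.94 (permutation p = 1e-05). The adjusted p was 0.0006 over 60 relations between members and other measures. Without control 24 and MSUS 5, the animals farthest from the median of *Malat1*, r was 0.97 (permutation p = 1e-05). Within the groups it was 0.92 in the 6 controls (exact permutation p = 0.0153) and 0.96 in the 7 MSUS animals (exact permutation p = 0.00179), so it was as close within each group as over both. By r with *Malat1*, *Per1* ranked 6 among 14420 genes. Of the other members, *Per3* had an r of 0.67 with *Malat1* (permutation p = 0.0127, adjusted 0.152, and rho 0.60, permutation p = 0.0323). *Clock* had an r of 0.60 (permutation p = 0.0295, adjusted 0.295, and rho 0.54, permutation p = 0.0620). Such r with *Malat1* were not rare. In absolute value, 8.22% of the 14420 genes had a larger one than *Per3*, and 13.02% a larger one than *Clock*.

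*Nr1d1* varied with the immediate early genes, a set of quickly induced transcription factor genes (*Fos*, *Fosb*, *Jun*, *Junb*, *Egr1*, *Ier2* and *Atf3*). Their mean level ranged from 6.45 to 7.06 log2 CPM in controls and from 6.44 to 7.37 in MSUS animals. The r of *Nr1d1* with this mean was 0.86 (permutation p = 0.00018, adjusted 0.0054), and rho was 0.91 (permutation p = 8e-05). It was 0.81 without MSUS 5 and MSUS 6, the animals farthest from the median (permutation p = 0.00278). Within controls it was 0.85 (n = 6, exact permutation p = 0.0375) and within MSUS animals 0.86 (n = 7, exact permutation p = 0.0159). The animals with a low *Nr1d1*, MSUS 1, MSUS 23 and control 22, were also low in immediate early genes. These 2 relations, *Per1* with *Malat1* and *Nr1d1* with immediate early genes, were the only ones of the 60 with an adjusted p under 0.05. The share of all genes with a larger r in absolute value was not computed for the immediate early genes.

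**Figure D3:**
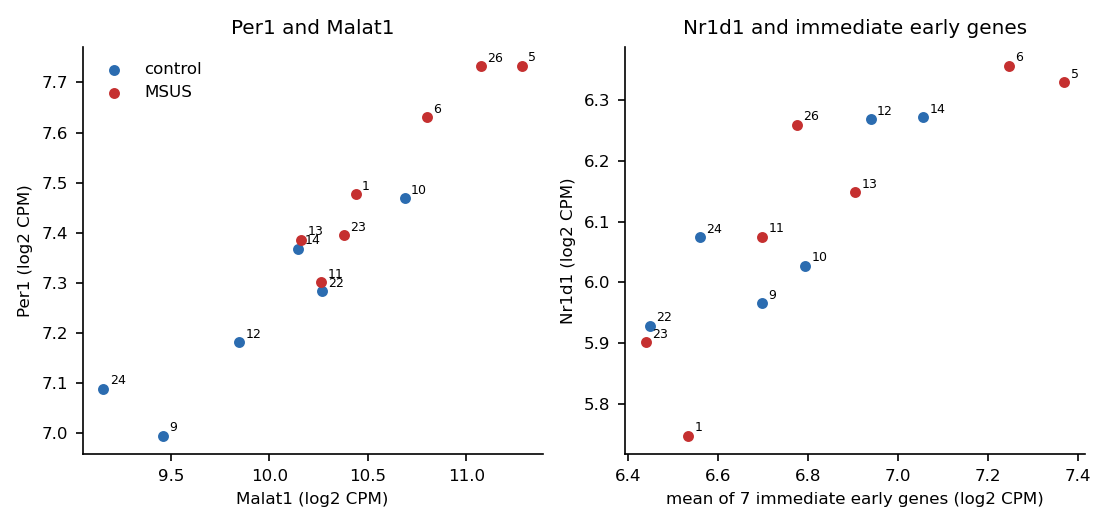
Left, *Per1* against *Malat1* in each animal; right, *Nr1d1* against the mean of the immediate early genes (all axes in log2 CPM, points numbered by animal, blue control, red MSUS). Points of both groups lie along a common line in each panel, with r of 0.96 and 0.86 over 13 animals.

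*Dbp* had an r of -0.74 with the elongated spermatid markers (permutation p = 0.00442, adjusted 0.0884; rho -0.74, permutation p = 0.00523). This relation was carried by the MSUS animals, in which r was -0.94 (n = 7, exact permutation p = 0.00159), whereas r was -0.13 in controls (n = 6, exact permutation p = 0.792). The difference between the groups was not tested. MSUS 26 had the highest *Dbp* and MSUS 11 the lowest, and without both r was -0.49 (permutation p = 0.124). *Per1* had an r of 0.48 with the peritubular myoid markers (permutation p = 0.0927, adjusted 0.537). It was 0.86 in MSUS animals (n = 7, exact permutation p = 0.0300) and -0.22 in controls (n = 6, exact permutation p = 0.71). Without MSUS 5 and MSUS 26 it was 0.09 (permutation p = 0.793). This difference between the groups was not tested either. The share of all genes with a larger r was not computed for the spermatid or the myoid markers.

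The second question was whether members varied across animals as in a strongly rhythmic tissue collected over the whole cycle. There *Arntl* and *Clock* would go against *Per1*, *Per2*, *Per3*, *Nr1d1*, *Nr1d2* and *Dbp* (12 opposed pairs), and these 6 would go with each other, as *Arntl* with *Clock* (16 like pairs). Males here were handled in the dark phase, at hours not given, and cycling was not measured. The sign of a pair thus need not follow the pattern of a rhythmic tissue. The counts of signs therefore do not test the hour of collection. Of the 12 opposed pairs, 3 had a negative r and 9 a positive r, with a median of 0.21. Of the 16 like pairs, 10 were positive and 6 negative, with a median r of 0.11. Opposed pairs were negative in 3 of 12 cases within controls and in 4 of 12 within MSUS animals. Of all 45 pairs, 7 had a permutation p under 0.05 and 0 an adjusted p under 0.05. Such r were not rare among 14420 genes. In absolute value, 9.50% of them had a larger r with *Per1* than *Clock* had, 12.5% than *Cry2* and 4.28% than *Per3*. The share was 3.69% for *Arntl* with *Cry1*, 4.99% for *Nr1d1* with *Per2* and 8.14% for *Dbp* with *Cry1*. It was not computed for *Cry1* with *Cry2*.

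**Figure D4:**
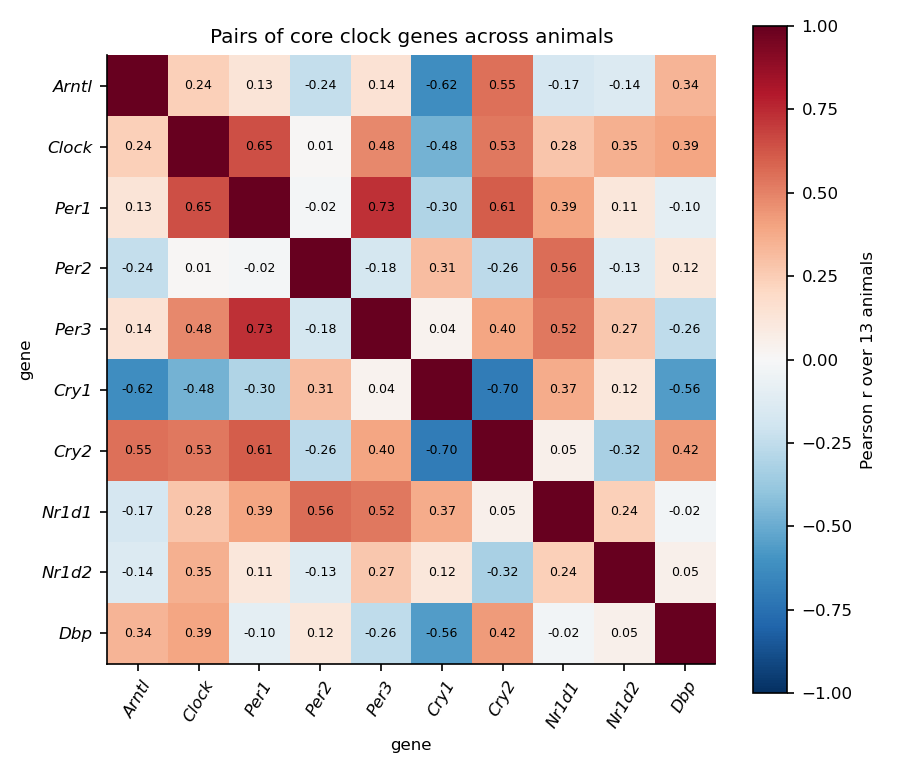
Pearson r over 13 animals for each pair of core clock genes (rows and columns; red positive, blue negative, values printed). In the rows of *Arntl* and *Clock*, 9 of the 12 cells for the *Per* genes, *Nr1d1*, *Nr1d2* and *Dbp* are positive.

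*Arntl* and *Nr1d1*, the activator gene and the gene of its direct repressor, had an r of -0.17 (permutation p = 0.588; rho -0.18, permutation p = 0.556), with 0.31 in controls (n = 6, exact permutation p = 0.625) and -0.46 in MSUS animals (n = 7, exact permutation p = 0.310). *Arntl* and *Dbp* had an r of 0.34 (permutation p = 0.259; rho 0.29, permutation p = 0.347). *Nr1d1* and *Dbp*, which share the dimer as activator and peak at like times in rhythmic tissues, had an r of -0.02 (permutation p = 0.939; rho -0.10, permutation p = 0.738). In absolute value, 94.1% of all genes had a larger r with *Nr1d1* than *Dbp* had. *Nr1d2* had an r of 0.24 with its paralog *Nr1d1* (permutation p = 0.436; rho 0.11, permutation p = 0.724).

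The 2 largest r in size were between members that the loop does not set against each other. *Per1* and *Per3* had an r of 0.73 (permutation p = 0.00452, adjusted 0.163; rho 0.69, permutation p = 0.0111). It was 0.58 without control 9 and MSUS 5 (permutation p = 0.0587), 0.50 in controls (n = 6, exact permutation p = 0.312) and 0.66 in MSUS animals (n = 7, exact permutation p = 0.0794). With the level of *Malat1* removed from both genes it was 0.42 (permutation p = 0.152). *Cry1* and *Cry2* had an r of -0.70 (permutation p = 0.00725, adjusted 0.163, and rho -0.70, permutation p = 0.00917). This rested on MSUS animals, with -0.90 (n = 7, exact permutation p = 0.00714) against 0.30 in controls (n = 6, exact permutation p = 0.579), and it was -0.46 without MSUS 1 and MSUS 11 (permutation p = 0.156). The difference between the groups was not tested.

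*Clock* and *Per1*, an opposed pair, had a positive r of 0.65 (permutation p = 0.0138, adjusted 0.207; rho 0.55, permutation p = 0.0557). It was 0.87 in controls (n = 6, exact permutation p = 0.00972) and 0.81 in MSUS animals (n = 7, exact permutation p = 0.0105), and with both groups set to a common mean it was 0.78 (permutation p = 0.00025, adjusted 0.0112). Without control 10 and MSUS 26, which had the highest *Clock* of their groups, it was 0.54 (permutation p = 0.0871). With the level of *Malat1* removed from both genes, r was 0.30 (permutation p = 0.325, adjusted 0.726). *Arntl* and *Cry1* had an r of -0.62 (permutation p = 0.0243, adjusted 0.249; rho -0.54, permutation p = 0.0626), with -0.14 in controls (n = 6, exact permutation p = 0.788) and -0.87 in MSUS animals (n = 7, exact permutation p = 0.0111). *Per2* and *Nr1d1* had an r of 0.56 (permutation p = 0.0356, adjusted 0.267; rho 0.43, permutation p = 0.139), which was 0.29 without MSUS 1 and MSUS 13 (permutation p = 0.386).

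**Figure D5:**
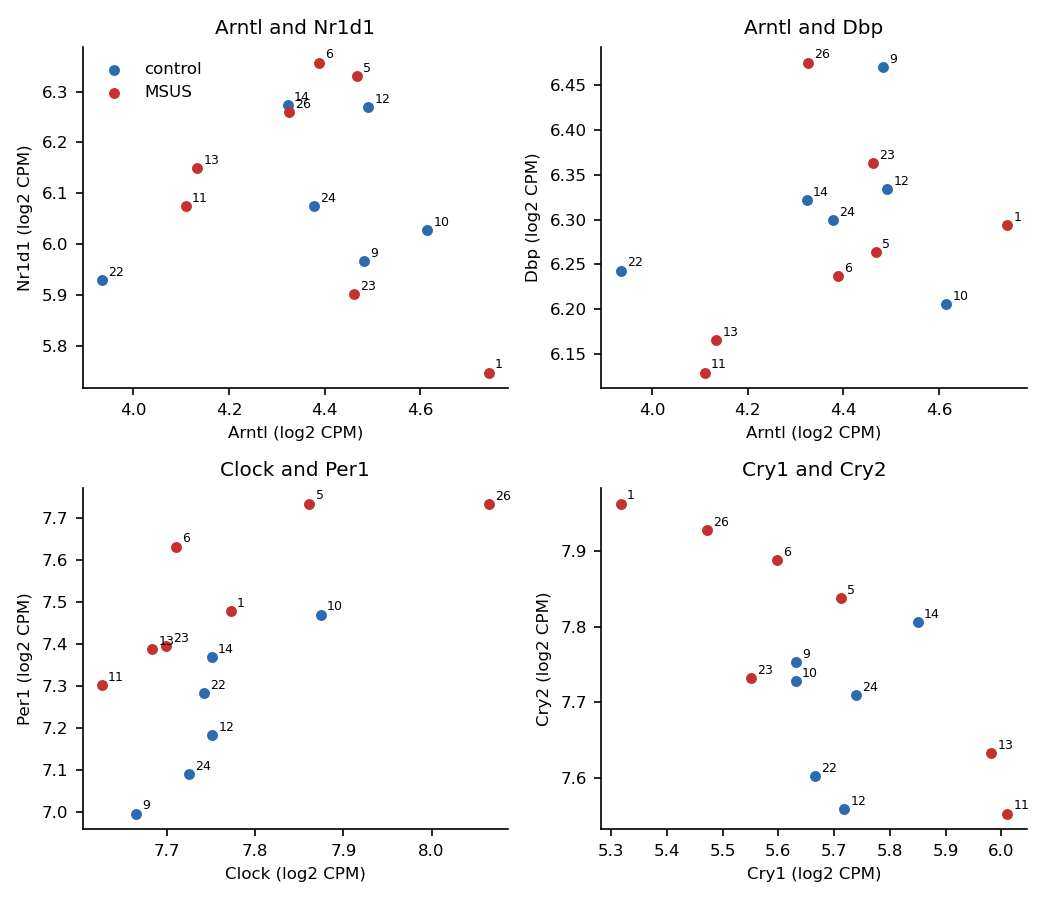
Levels (log2 CPM on both axes) of 4 pairs in each animal (points numbered by animal, blue control, red MSUS). *Arntl* has an r of -0.17 with *Nr1d1* and of 0.34 with *Dbp*, *Clock* and *Per1* go together in both groups, and *Cry1* and *Cry2* are opposed in the MSUS animals, from MSUS 1 to MSUS 11.

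A larger spread in MSUS animals was compared by the mean distance of each animal from its group median. The ratio of MSUS to control was 3.10 for *Cry1* (exact permutation p = 0.0950 over 1716 splits), 2.52 for *Per2* (exact permutation p = 0.238) and 2.42 for *Clock* (exact permutation p = 0.324). It was 1.02 for *Per1*, 0.992 for *Arntl* and 0.967 for *Nr1d2*. For 0 of 10 members was the unadjusted p under 0.05, and the adjusted p were 0.726 or more (the smallest p the design allows is 0.000583).

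The genes most like 4 members over the 13 animals were listed by r, without a test. For *Arntl* these were *Lims1* (0.90), *Pank1* (0.86) and *Aggf1* (0.83), and the most opposed was *Syce3* (-0.85). For *Nr1d1* they were the immediate early gene *Junb* (0.89), *Fbxo33* (0.88) and *Mafk* (0.87), with *Zfp36*, which encodes an mRNA decay factor, at 0.85, and the most opposed was *Smpdl3a* (-0.95). For *Dbp* they were *Triobp* (0.91) and the endoplasmic reticulum chaperone gene *Hsp90b1* (0.86), and *Armh2* was most opposed (-0.89). For *Per1* they were *Kifc2* (0.96), *Malat1* (0.96) and *Chka* (0.94), and the most opposed was *Ppia*, the gene of cyclophilin A (-0.91), with the translation elongation factor gene *Eef1a1* at -0.90. None of the 5 genes with the highest or the 5 with the lowest r for these 4 members was another member of the clock.

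Other genes of the pathway were taken from lists of 24 regulators of the loop and 7 output genes. Of the regulators, 22 were tested, and 1 had an unadjusted p under 0.05, with a lower value in MSUS animals. Over all genes, the share with an unadjusted p under 0.05 was 5.42%, and 2.4% had lower values in MSUS animals. The regulator was *Hdac3*, the histone deacetylase recruited by REV-ERB proteins, with a log2 fold change of -0.15 (SE 0.07, limma adjusted p = 0.878). Its p was under 0.05 in 15 of 24 alternatives, and its estimate was -0.06 with *Malat1* as covariate. *Bhlhe41*, a repressor that competes for E-boxes, had the largest estimate with 0.51 (SE 0.36, 95% interval -0.25 to 1.27), and *Prkaa2*, a subunit of the AMP-activated kinase, the lowest with -0.21 (SE 0.30, interval -0.84 to 0.42). Both had few reads, and single animals moved their estimates: that of *Bhlhe41* was 0.20 without control 9, and that of *Prkaa2* was -0.10 without control 22 or without MSUS 1 and -0.42 without MSUS 26. With *Malat1* as covariate they were 0.28 and -0.41, and with the spermatid covariate that of *Prkaa2* was -0.03. The paralogs of the activators, *Npas2* and *Arntl2*, had 0.09 (SE 0.13) and 0.10 (SE 0.23), and *Rora*, whose protein activates *Arntl*, had 0.04 (SE 0.11). These 3 were named for their roles after their values were seen. *Rorb* and *Csnk1e* did not pass the filter on low counts. Of the outputs, 6 were tested and 0 had a p under 0.05. *Tef*, a relative of *Dbp*, had -0.12 (SE 0.08), *Wee1*, a cell cycle kinase gene, 0.06 (SE 0.08) and *Tspan4* -0.13 (SE 0.23). The median log2 fold change was 0.017 for the regulators and -0.026 for the outputs, against -0.0018 for all genes.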

How the data were processed

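RNA-seq of enriched Sertoli cells was analysed in 13 adult males. Per the labels and the study's methods, libraries were made from 5 ng of RNA with 12 PCR cycles and read from one end over 100 bp, and the authors trimmed reads with Trim Galore 0.6.5 and assigned them with Salmon 1.1.0 to GENCODE vM23 transcripts (GRCm38). The authors deposited estimated counts per gene, without normalization. How transcripts were summed to genes is not given in the sources used here.

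Estimated counts were rounded. The 27170 of 54281 features with no gene name held 20.7% to 26.7% of the counts of a sample and were left out. Total counts were 13087203 to 18649945 in controls and 12701776 to 15693938 in MSUS animals. Genes were kept by filterByExpr (minimum count 10), normalized by TMM and tested with limma 3.58.1 voom in R 4.3.3, as in the study's methods, with edgeR 4.0.16 (quasi-likelihood) and DESeq2 1.42.0 as alternatives. For log2 CPM a prior count of 2 was added, and p-values were adjusted over the 14421 genes (Benjamini-Hochberg). Pairs were tested by two-sided permutation (100000 draws, or exact within groups; scipy 1.17.1), adjusted over 45 pairs. Replicates are separate animals, and litter was not modelled. Statistics were tested on simulated data.

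The members and gene lists were chosen with earlier results of these data known. The rule named every member, the most extreme other clock genes and the 5 most alike and opposed genes of *Arntl*, *Nr1d1*, *Dbp* and *Per1*. Alternatives were other tests, scalings, filters and covariates, removed scores, and leaving out each animal. The second batch and the other assays of the study were not analysed here.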

Additional observations from a re-analysis of the deposited data

How the results depend on the processing

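Under the 24 alternatives to the comparison of groups, 0 core clock genes had an adjusted p under 0.05, as in the main test. The number with an unadjusted p under 0.05 was 2, and it was 1 with library size alone, with no count filter, and with the elongated spermatid score or the immediate early gene score as covariate, and 0 with *Malat1* as covariate. It was 1 to 2 when 1 animal was left out (1 without control 9, 12, 14, 22 or 24 or without MSUS 5, 6, 13 or 26, *Per3* being the gene lost, and without MSUS 11 *Cry2* took its place). Among the other clock genes the number was 1, against 2 with no count filter and 0 with *Malat1* or the immediate early gene score as covariate, and 0 to 1 when 1 animal was left out. The log2 fold change of *Per1* ranged from 0.06 to 0.34. The immediate early gene covariate was chosen after seeing the data. No paired analysis was possible because the groups share no animal numbers. With library size alone, the genes with p under 0.05 over the whole table were 325 higher and 469 lower, against 435 and 346 with TMM. They numbered 1204 with the spermatid covariate and 401 with *Malat1*.

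Estimates near 0 changed sign. *Arntl* had a log2 fold change of -0.0033 with sample weights, -0.011 with library size alone, -0.00074 with no count filter, -0.0021 with unnamed features kept, and -0.016, -0.027 and -0.0096 with the spermatid, *Malat1* and immediate early covariates. *Nr1d2* had -0.015 with weights, -0.0071 with library size alone and -0.014 with *Malat1*. With *Malat1*, *Clock* had -0.092, *Cry1* 0.035, *Nr1d1* -0.050, *Tspan4* 0.19 and *Wee1* -0.012, with immediate early genes *Nr1d1* had -0.028 and *Tspan4* 0.027, and with spermatid markers *Dbp* had 0.0051. With 1 animal left out, the ranges were -0.094 to 0.063 for *Arntl*, -0.022 to 0.048 for *Clock*, -0.098 to 0.020 for *Cry1*, -0.0046 to 0.097 for *Nr1d1* and -0.0081 to 0.060 for *Nr1d2*.

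Of the 45 pairs, 7 had a p under 0.05, against 4 with library size alone and 3 without the 2 animals farthest from the median. The number with an adjusted p under 0.05 was 0, against 1 after group centring and 4 with the spermatid score removed, and 0 to 1 when 1 animal was left out (1 without MSUS 23). The 3 negative opposed pairs were 5 with the spermatid score removed and 5 without the 2 farthest animals, and 1 (without MSUS 1) to 5 (without MSUS 26) when 1 animal was left out. The positive like pairs numbered 8 to 12. In controls alone r was -0.021 for *Arntl* and *Per1*, 0.10 for *Arntl* and *Per2*, 0.31 for *Arntl* and *Nr1d1*, 0.30 for *Cry1* and *Cry2*, 0.0036 for *Cry1* and *Dbp* and 0.059 for *Nr1d1* and *Dbp*, and in MSUS animals alone it was -0.055 for *Arntl* and *Per3*. The r of *Nr1d1* and *Dbp* was 0.0073 with library size alone, 0.020 with *Malat1* removed, 0.22 with immediate early genes removed and 0.049 without the 2 farthest animals. Without those animals *Arntl* had an r of -0.013 with *Per1*, 0.44 with *Per2* and -0.18 with *Per3*. With 1 animal left out, r ranged from -0.44 to 0.18 for *Arntl* and *Nr1d1*, from -0.38 to 0.43 for *Arntl* and *Per2*, from -0.10 to 0.22 for *Arntl* and *Per3* and from -0.19 to 0.11 for *Nr1d1* and *Dbp*. The spread differed with p under 0.05 for 0 members, and for 0 to 1 when 1 animal was left out (1 without control 14, MSUS 6 or MSUS 23). The cause of these changes was not tested.

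Depth limits *Per2* and *Per3*, with 4 to 38 and 30 to 94 counts per animal. The SD over animals was 0.78 for *Per2* and 0.37 for *Per3*, against 0.26 and 0.19 from counting at the median count (log2). Counting error is larger at lower counts, and the *Per2* SD includes MSUS 1 with 4 counts and MSUS 13 with 13. These values therefore do not show how much of the *Per2* spread lies beyond counting.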
